A study of Homo sapiens with 9 samples.

Results

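The 35 genes described here encode aminoacyl tRNA synthetases, the enzymes that join an amino acid to its tRNA. They were chosen by symbol among the 63241 genes of the deposited tables. The 19 cytosolic genes have symbols ending in 1 or are FARSA and FARSB, and the 16 mitochondrial genes have symbols ending in 2. All 35 genes were found and all 35 passed the filter on low counts that left 14592 genes for testing. Poly(A) RNA was sequenced from MEG-01, a human megakaryoblastic leukaemia line that can be driven towards platelet-forming cells, in 3 libraries treated with As2S2, 3 treated with PMA and 3 labelled control. As2S2 is an arsenic sulfide, and PMA is a phorbol ester that activates protein kinase C and is a standard inducer of megakaryocyte differentiation. The question of the study was the role of the kinases SRC, MEK and ERK in megakaryocyte differentiation under As2S2. The labels give no dose, exposure time or vehicle and do not tell whether a group's libraries were grown as separate cultures. The p-values below therefore rest on the spread among these libraries alone, which may be technical.

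A synthetase activates its amino acid with ATP and transfers it to the matching tRNA, which then enters the ribosome. Cytosolic and mitochondrial ribosomes use separate sets of tRNAs, and for most amino acids separate nuclear genes encode the enzymes of the compartments. GARS1 and KARS1 each encode both forms from a single gene, EPRS1 carries glutamyl and prolyl activities in 1 protein, and the cytosolic phenylalanyl enzyme is built from FARSA and FARSB. Several cytosolic synthetase genes are known targets of ATF4, the transcription factor of the amino acid response, whereas WARS1 is also known as a gene induced by interferon.

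Total estimated counts ran, in units of 1e6, from 18.7 to 19.45 in As2S2 libraries, from 18.2 to 20.17 in PMA libraries and from 18.68 to 20.37 in control libraries. As2S2 replicate 1 and control replicate 2 stood apart from their groups: pairs of replicates that held either differed by a chi-square of 11.5 to 14.4 per gene, while the chi-square of all remaining pairs was 2.38 to 3.37. Counts from the mitochondrial genome took 7.19% to 8.11% of the As2S2 libraries, 9.99% to 10.2% of the PMA libraries and 7.90% to 8.20% of the control libraries, and the part of this in the results was not tested. Of 6 megakaryocyte markers 5 were tested, and with each treatment 2 were higher and 1 was lower than in control libraries (edgeR, adjusted p under 0.05), where 20.3% of all tested genes were higher and 19.6% lower with As2S2 and 30.8% higher and 31.1% lower with PMA. The lower one was ITGA2B, the platelet integrin alpha chain, at 122 to 147 TPM with As2S2, 63.5 to 73.0 TPM with PMA and 183 to 197 TPM in control libraries. Its partner ITGB3 was higher with both treatments, 1.76-fold with As2S2 and 5.37-fold with PMA, GP1BA was higher with As2S2 (1.44-fold) and GP9 with PMA (6.96-fold); GP1BA and GP9 encode chains of a platelet glycoprotein receptor. GATA1 did not pass with either treatment, and the platelet chemokine PF4, which was not tested, did not exceed 0.10 TPM. The 6 markers summed to 205 to 245 TPM with As2S2, 170.2 to 192 TPM with PMA and 267 to 295 TPM in control libraries. The 4 erythroid genes on the marker list summed to 526 to 598 TPM with As2S2, 402 to 442 TPM with PMA and 451 to 543 TPM in control libraries, and the 3 stromal genes to 0.15 to 0.50 TPM with As2S2, 1.11 to 1.57 TPM with PMA and 0.03 to 0.08 TPM in control libraries. These sums are in TPM, which shifted as a whole, with a median log2 ratio of -0.40 over all tested genes for PMA against control. GATA1, for example, averaged 52.7 TPM with PMA and 72.8 TPM in control libraries, but 101 and 102 CPM, the scaled counts described below. The sums therefore do not measure a change of the markers. The part of these markers in the results was not tested. In bulk RNA, fewer cells of a kind and less RNA per cell cannot be told apart.

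Levels of different genes were compared in TPM, which divides reads by transcript length and scales each library to the same total. Changes of a gene between groups were compared in CPM, counts scaled by library total with TMM factors, because TPM as a whole shifted: over the 14592 tested genes the median log2 ratio of mean TPM was -0.11 for As2S2 against control and -0.40 for PMA against control. Cytosolic synthetase transcripts outnumbered mitochondrial ones in every library. The summed TPM of the 19 cytosolic genes over that of the 16 mitochondrial genes was 12.4, 12.4 and 11.9 in As2S2 libraries, 6.53, 6.11 and 6.20 in PMA libraries and 12.6, 11.03 and 12.6 in control libraries. The PMA libraries did not overlap either other group, while the As2S2 libraries lay within the range of the control libraries. Without WARS1 the ratio averaged 8.24 ± 0.31 with As2S2, 5.70 ± 0.21 with PMA and 8.40 ± 0.48 in control libraries (SD, n = 3 each).

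In summed CPM, the cytosolic class reached 4374, 4241 and 4222 in As2S2 libraries, 2146, 2135 and 2081 in PMA libraries and 5317, 5231 and 5289 in control libraries. The mitochondrial class reached 398, 393 and 408 in As2S2 libraries, 354, 362 and 360.2 in PMA libraries and 473, 504 and 477 in control libraries. The class totals with As2S2 were thus 81.1% of control for the cytosolic genes and 82.6% for the mitochondrial genes, and with PMA 40.2% and 74.0%. No treated library overlapped a control library in either total.

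**Figure D1:**
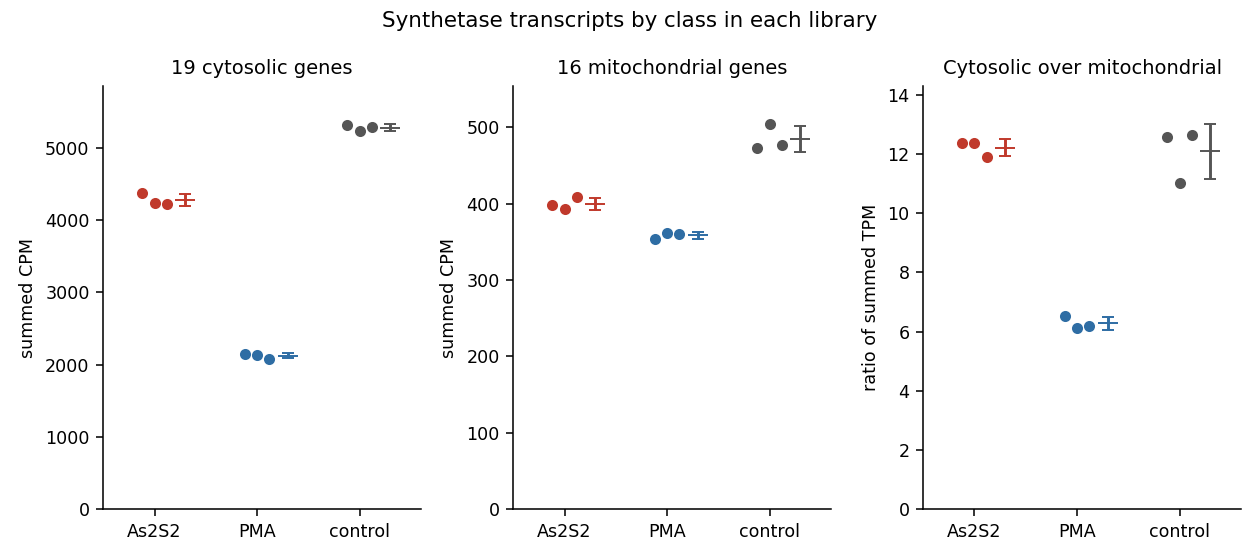
Summed CPM of the 19 cytosolic genes (left), summed CPM of the 16 mitochondrial genes (middle) and the ratio of their summed TPM (right) in each library, with the mean and SD of 3 libraries beside the points. The PMA libraries have the lowest cytosolic totals, 2081 to 2146 CPM, and the lowest ratios, 6.11 to 6.53.

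WARS1, the tryptophanyl enzyme, was the most abundant synthetase transcript in As2S2 libraries and in control libraries, at 599.9 ± 5.97 TPM and 723 ± 83.4 TPM (SD, n = 3 each). It took 32.6% ± 1.10 of the cytosolic total with As2S2, 9.32% ± 0.142 with PMA and 30.4% ± 1.40 in control libraries. In PMA libraries SARS1 led at 98.0 TPM, followed by QARS1 at 82.2 TPM and WARS1 at 62.6 TPM. FARSB was the lowest cytosolic gene in all 3 groups, at 5.40 TPM with As2S2, 4.38 TPM with PMA and 11.7 TPM in control libraries. Among mitochondrial genes CARS2 led in control libraries at 27.0 TPM and with As2S2 at 18.8 TPM, and YARS2 led with PMA at 15.1 TPM. LARS2 and AARS2 were the lowest pair in control libraries, at 3.80 and 3.41 TPM.

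The starts of these genes were searched for known elements, since many of the members changed together. RefSeq promoters on GRCh38.p14, running from 250 bases before to 50 bases after the gene start, matched 30 of the 35 members by symbol, 16 cytosolic and 14 mitochondrial. The letters TGATGCAA, the core of the element that C/EBP and ATF4 dimers bind, were searched on both strands and stood in 6 of the 16 cytosolic promoters, 0 of the 14 mitochondrial promoters and 1.08% of all 27305 promoters. The motif was chosen with results of these data known, and a match describes letters only. The 6 stretches are shown because the motif stood in cytosolic and not in mitochondrial promoters of the set searched. Capitals mark the element, which reads TTGCATCA where it lies on the opposite strand, and each stretch is written along the gene's own strand.
AARS1 (chr16:70289675-70289704, minus strand, 180 bases before the start): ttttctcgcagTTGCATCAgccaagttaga
CARS1 (chr11:3057407-3057436, minus strand, across the start): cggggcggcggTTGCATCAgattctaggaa
IARS1 (chr9:92293692-92293721, minus strand, 6 bases before the start): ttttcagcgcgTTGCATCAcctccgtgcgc
MARS1 (chr12:57488053-57488082, plus strand, across the start): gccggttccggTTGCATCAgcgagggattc
NARS1 (chr18:57621804-57621833, minus strand, 15 bases after the start): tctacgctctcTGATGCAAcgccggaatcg
TARS1 (chr5:33440956-33440985, plus strand, 3 bases after the start): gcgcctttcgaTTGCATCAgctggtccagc

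The E-box CACGTG, which MYC and related factors bind, stood in 1 of 16 cytosolic promoters (IARS1) and 3 of 14 mitochondrial promoters (CARS2, EARS2 and MARS2), against 8.77% of all promoters. The letters GCATGCGC, the core of the element of the respiratory gene regulator NRF1, stood in 0 of 16 cytosolic and 2 of 14 mitochondrial promoters (MARS2 and YARS2), against 3.68% of all promoters. Both were searched on both strands.

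With PMA, cytosolic synthetase transcripts were lower throughout most of the class and mitochondrial ones were lower by less. Of 19 cytosolic genes, 16 fell, 0 rose and 3 did not pass the test (edgeR quasi-likelihood F-test, Benjamini-Hochberg adjusted p under 0.05). Over all tested genes 61.9% passed, 30.8% higher and 31.1% lower. The CPM of PMA and control libraries did not overlap in many of these genes, with 33.7% lower and 33.8% higher. The median log2 fold change of the cytosolic class was -1.28, against 0.00 over all tested genes, and 11 of the 19 fell by 1 or more on the log2 scale, against 9.18% of all tested genes. Of 16 mitochondrial genes, 13 fell, 1 rose and 2 did not pass, with a median of -0.47 and none at -1 or below. Without As2S2 replicate 1 and control replicate 2 the counts were again 16 lower and 0 higher, and 13 lower and 1 higher, where 67.6% of tested genes passed.

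The genes that fell most with PMA were WARS1, EPRS1, IARS1 and GARS1, the enzymes for tryptophan, for glutamate with proline, for isoleucine and for glycine. WARS1 had 917, 924 and 959 CPM in As2S2 libraries, 159, 159 and 155 CPM in PMA libraries and 1060.2, 1065 and 1093 CPM in control libraries. All 3 PMA libraries lay far below the other 6, with a log2 fold change of -2.77 ± 0.06 (adjusted p = 4.22e-15, edgeR). EPRS1 had 73.2, 76.9 and 62.2 CPM in As2S2 libraries, 22.5, 16.6 and 17.2 CPM in PMA libraries and 111, 79.7 and 106 CPM in control libraries. Its PMA libraries did not overlap the control libraries, with a log2 fold change of -2.40 ± 0.14 (adjusted p = 3.23e-10, edgeR). IARS1 had 167, 149 and 142 CPM in As2S2 libraries, 59.7, 61.1 and 60.4 CPM in PMA libraries and 264, 207 and 242 CPM in control libraries, and the log2 fold change with PMA was -1.98 ± 0.09 (adjusted p = 1.83e-11, edgeR). GARS1, which supplies glycyl-tRNA to both compartments, had 428, 369 and 372 CPM in As2S2 libraries, 134, 138 and 130.1 CPM in PMA libraries and 499, 461 and 488 CPM in control libraries, and its log2 fold change with PMA was -1.85 ± 0.07 (adjusted p = 3.46e-12, edgeR). The PMA libraries of both genes stood apart below the As2S2 and control libraries.

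AARS1, the alanyl enzyme, had 279, 303 and 302 CPM in As2S2 libraries, 119.9, 123.1 and 118 CPM in PMA libraries and 401, 415 and 403 CPM in control libraries, with a log2 fold change of -1.76 ± 0.07 (adjusted p = 1.41e-12, edgeR). CARS1, the cysteinyl enzyme, had 149, 153 and 144 CPM in As2S2 libraries, 47.3, 45.2 and 42.2 CPM in PMA libraries and 134, 139 and 139 CPM in control libraries, with a log2 fold change of -1.61 ± 0.07 (adjusted p = 1.21e-11, edgeR). In both genes the PMA libraries were the lowest 3 of 9. The enzymes for methionine, tyrosine, valine, leucine and serine also fell with PMA: log2 fold changes were -1.40 ± 0.07 for MARS1, -1.38 ± 0.06 for YARS1, -1.33 ± 0.10 for VARS1, -1.28 ± 0.10 for LARS1 and -1.21 ± 0.06 for SARS1. SARS1 had 500.2, 466 and 479 CPM in As2S2 libraries, 258, 264 and 250.1 CPM in PMA libraries and 578, 605 and 602 CPM in control libraries, so that the PMA libraries held less than any other library. The beta subunit of the phenylalanyl enzyme, FARSB, had a log2 fold change of -0.93 ± 0.09 with PMA and the alpha subunit, FARSA, -0.68 ± 0.09.

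At the other end of the class, TARS1 and NARS1, the threonyl and asparaginyl enzymes, fell by less. TARS1 had 116, 95.7 and 81.8 CPM in As2S2 libraries, 71.7, 74.2 and 75.2 CPM in PMA libraries and 144, 117 and 131 CPM in control libraries, with a log2 fold change of -0.82 ± 0.11 (adjusted p = 5.38e-06, edgeR). NARS1 had 208, 166 and 154 CPM in As2S2 libraries, 138, 137 and 136 CPM in PMA libraries and 258, 192 and 247 CPM in control libraries, with a log2 fold change of -0.76 ± 0.11 (adjusted p = 1.97e-05, edgeR). In both, control replicate 2 was the lowest control library and lay above every PMA library. FARSA had 176, 211 and 214 CPM in As2S2 libraries, 154, 144 and 153 CPM in PMA libraries and 223, 275 and 224 CPM in control libraries, with a log2 fold change of -0.68 ± 0.09 (adjusted p = 7.48e-06, edgeR), again without overlap between PMA and control libraries.

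KARS1, the lysyl enzyme of both compartments, had 195, 156 and 152 CPM in As2S2 libraries, 174, 183 and 173 CPM in PMA libraries and 210.3, 205 and 209.8 CPM in control libraries. It showed the smallest fall among the cytosolic genes past the test, with a log2 fold change of -0.24 ± 0.08 (adjusted p = 0.0217, edgeR), and this call rested on single libraries: leaving out control replicate 1 gave an adjusted p of 0.0536, control replicate 3 gave 0.0506, PMA replicate 1 gave 0.0727 and PMA replicate 3 gave 0.0769. HARS1, QARS1 and RARS1, the enzymes for histidine, glutamine and arginine, did not pass. HARS1 had 138, 132 and 138 CPM in As2S2 libraries, 128, 124 and 119 CPM in PMA libraries and 117, 126 and 124 CPM in control libraries, with a log2 fold change of 0.01 ± 0.07 (adjusted p = 0.927, edgeR). QARS1 had 168, 181 and 181 CPM in As2S2 libraries, 189, 184 and 179 CPM in PMA libraries and 167, 201 and 178 CPM in control libraries, with a log2 fold change of 0.02 ± 0.07 (adjusted p = 0.868, edgeR). The sign of both fold changes turned when control replicate 1 was left out, to -0.025 for HARS1 and -0.044 for QARS1. RARS1 had 35.1, 30.8 and 25.7 CPM in As2S2 libraries, 39.4, 45.8 and 42.4 CPM in PMA libraries and 41.6, 29.8 and 37.4 CPM in control libraries, with a log2 fold change of 0.23 ± 0.13 (adjusted p = 0.127, edgeR); without control replicate 1 it was 0.34 with an adjusted p of 0.0453.

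**Figure D2:**
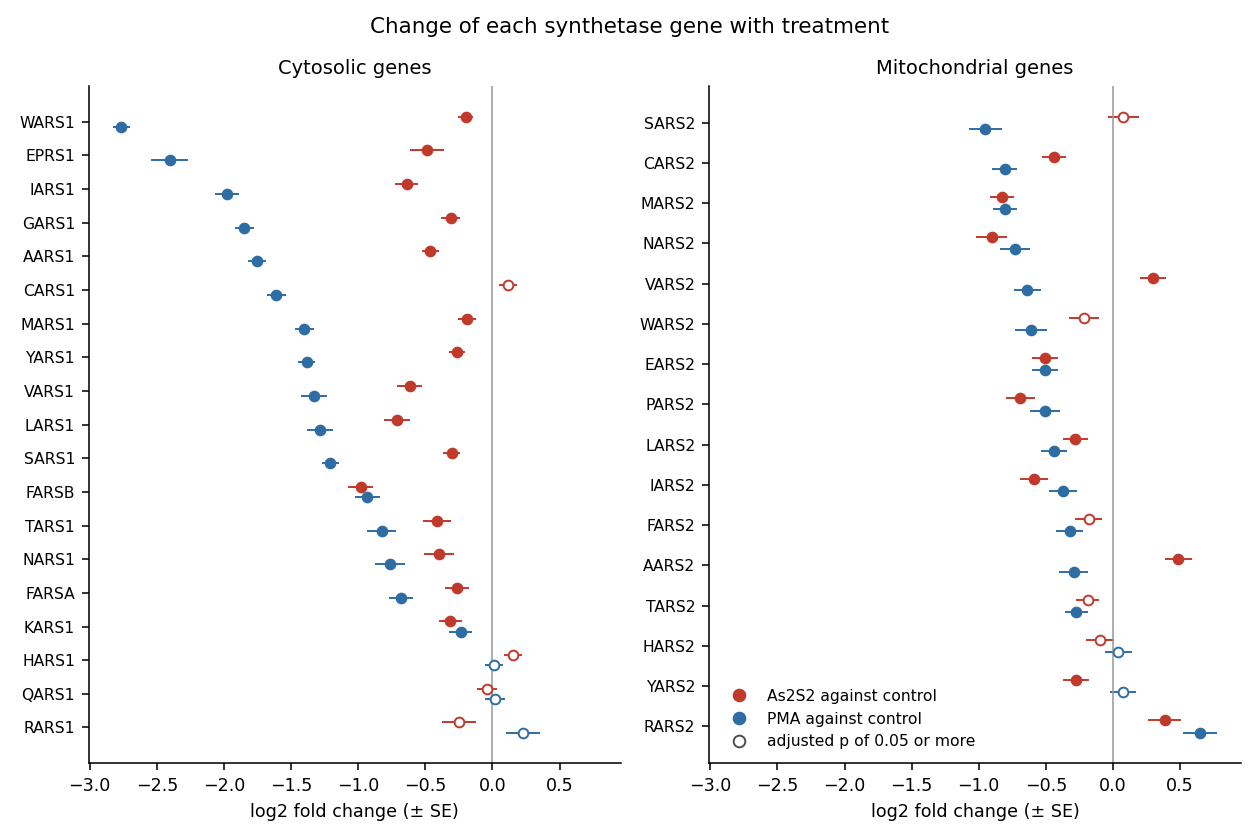
Log2 fold change of each synthetase gene with As2S2 and with PMA against control, with the SE derived from the F statistic of the test. Filled points have an adjusted p under 0.05, and genes are ordered by the PMA fold change. Cytosolic genes run from -2.77 (WARS1) to 0.23 (RARS1) with PMA, and mitochondrial genes from -0.95 (SARS2) to 0.65 (RARS2).

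Members of the multisynthetase complex, a cytosolic assembly that holds EPRS1, IARS1, KARS1, LARS1, MARS1, QARS1 and RARS1, differed among themselves. With PMA 5 of the 7 fell, where 31.1% of all tested genes fell; the falls ran from -0.24 (KARS1) to -2.40 (EPRS1), and QARS1 and RARS1 did not pass. The scaffold genes of this complex had log2 fold changes with PMA of -0.89 ± 0.11 for AIMP2, -0.65 ± 0.08 for EEF1E1 and -0.23 ± 0.13 for AIMP1, of which AIMP1 did not pass (adjusted p = 0.119, edgeR). Cytosolic enzymes with the class I catalytic fold had a median of -1.38 over 9 genes, and those with the class II fold -0.82 over 9 genes. Among cytosolic genes with a RefSeq promoter, the 6 with the element shown above had PMA fold changes of -1.98 (IARS1) to -0.76 (NARS1), with a median of -1.51, and the 10 without it had fold changes of -2.77 (WARS1) to 0.23 (RARS1), with a median of -0.81. WARS1, EPRS1 and GARS1, 3 of the 4 genes that fell most, were among the 10 without it. LARS1, VARS1 and YARS1 had no RefSeq promoter matched by symbol and are in neither set. The part of the element in these changes was not tested. With As2S2 the 6 genes with the element ran from -0.64 (IARS1) to 0.12 (CARS1), with a median of -0.41. The 10 without it ran from -0.98 (FARSB) to 0.15 (HARS1) with As2S2, with a median of -0.28.

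**Figure D3:**
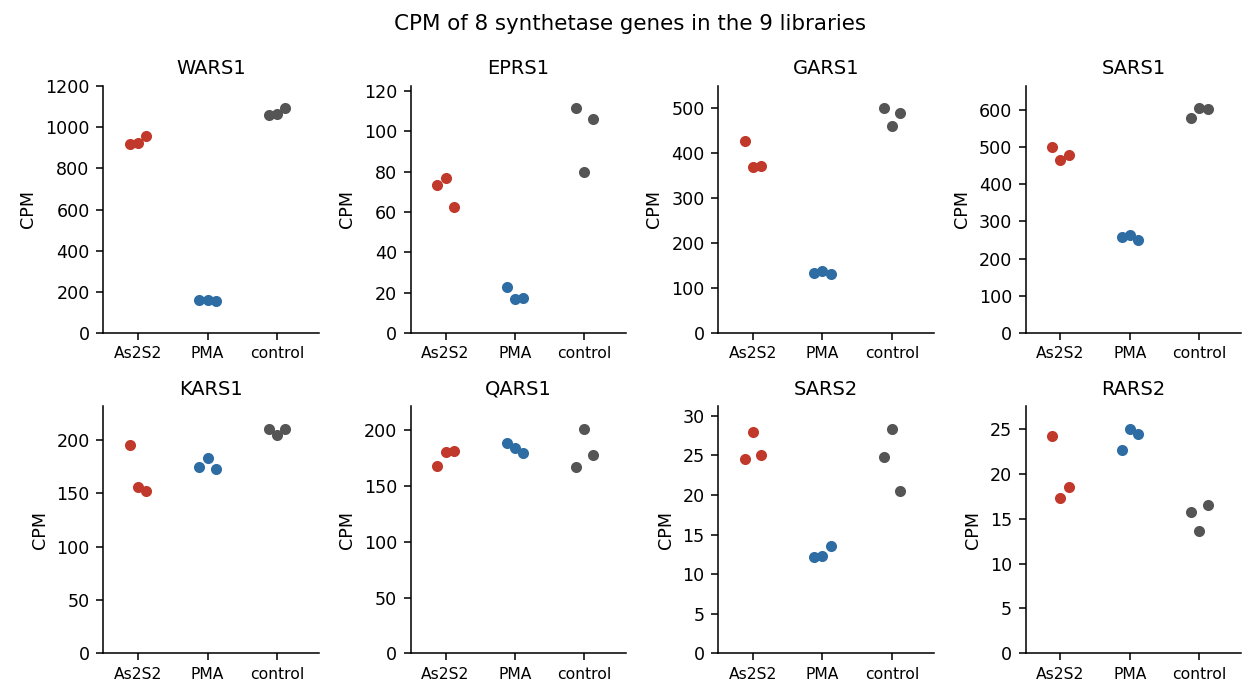
CPM in each of the 9 libraries for 8 synthetase genes, each panel with its own axis from 0. WARS1, EPRS1, GARS1 and SARS1 are lowest in PMA libraries, QARS1 lies between 167 and 201 CPM in all 9, SARS2 is lowest in PMA libraries at 12.2 to 13.6 CPM, and RARS2 is lowest in control libraries at 13.6 to 16.6 CPM.

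Among mitochondrial genes, SARS2, CARS2, MARS2 and NARS2 had the lowest PMA fold changes; they charge mitochondrial serine, cysteine, methionine and asparagine tRNAs. SARS2 had 24.5, 27.9 and 25.00 CPM in As2S2 libraries, 12.2, 12.2 and 13.6 CPM in PMA libraries and 24.9, 28.3 and 20.5 CPM in control libraries, with a log2 fold change of -0.95 ± 0.12 (adjusted p = 4.36e-06, edgeR). CARS2 had 31.1, 34.4 and 35.3 CPM in As2S2 libraries, 26.3, 24.7 and 27.1 CPM in PMA libraries and 44.3, 49.5 and 42.9 CPM in control libraries, with a log2 fold change of -0.81 ± 0.09 (adjusted p = 1.22e-06, edgeR). The PMA libraries of both were below every other library. MARS2 had 35.9, 38.1 and 42.04 CPM in As2S2 libraries, 41.1, 37.7 and 39.3 CPM in PMA libraries and 62.3, 72.9 and 70.96 CPM in control libraries, with a log2 fold change of -0.80 ± 0.09 (adjusted p = 9.12e-07, edgeR). NARS2 had 21.2, 16.1 and 16.4 CPM in As2S2 libraries, 19.4, 19.5 and 21.5 CPM in PMA libraries and 35.8, 31.6 and 33.1 CPM in control libraries, with a log2 fold change of -0.73 ± 0.11 (adjusted p = 2.86e-05, edgeR). In these genes all 6 treated libraries lay below the 3 control libraries.

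The remaining mitochondrial genes that fell with PMA ranged from -0.64 ± 0.10 for VARS2 to -0.27 ± 0.08 for TARS2, with -0.61 for WARS2, -0.51 for EARS2 and PARS2, -0.44 for LARS2 and -0.37 for IARS2 between them. TARS2, the threonyl enzyme, had 34.6, 32.3 and 36.97 CPM in As2S2 libraries, 32.5, 33.1 and 32.4 CPM in PMA libraries and 39.1, 41.1 and 38.4 CPM in control libraries, with a log2 fold change of -0.27 ± 0.08 (adjusted p = 0.0099, edgeR). FARS2, the single-chain phenylalanyl enzyme of mitochondria, had 17.5, 20.8 and 19.3 CPM in As2S2 libraries, 17.03, 18.5 and 16.7 CPM in PMA libraries and 20.6, 22.5 and 22.3 CPM in control libraries, with a log2 fold change of -0.32 ± 0.10 (adjusted p = 0.0109, edgeR), and its adjusted p was 0.0505 without PMA replicate 3. AARS2, the alanyl enzyme, had 23.5, 28.1 and 28.9 CPM in As2S2 libraries, 14.9, 15.9 and 16.1 CPM in PMA libraries and 17.9, 19.6 and 20.02 CPM in control libraries, with a log2 fold change of -0.29 ± 0.11 (adjusted p = 0.024, edgeR); leaving out control replicate 3 gave an adjusted p of 0.0794, PMA replicate 1 gave 0.092 and PMA replicate 2 gave 0.0501. The PMA and control libraries did not overlap in TARS2, FARS2 or AARS2.

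RARS2, the mitochondrial arginyl enzyme, was the only member of either class that rose with PMA in the fit of all 9 libraries. It had 24.2, 17.3 and 18.5 CPM in As2S2 libraries, 22.6, 24.96 and 24.4 CPM in PMA libraries and 15.7, 13.6 and 16.6 CPM in control libraries, so that every PMA library lay above every control library, with a log2 fold change of 0.65 ± 0.13 (adjusted p = 0.000284, edgeR). HARS2 and YARS2, the histidyl and tyrosyl enzymes, did not pass with PMA. HARS2 had 28.5, 22.9 and 27.2 CPM in As2S2 libraries, 27.8, 28.7 and 30.1 CPM in PMA libraries and 25.2, 29.6 and 29.5 CPM in control libraries, with a log2 fold change of 0.04 ± 0.10 (adjusted p = 0.754, edgeR); the value was -0.034 without control replicate 1. YARS2 had 22.6, 20.8 and 20.4 CPM in As2S2 libraries, 26.4, 28.8 and 26.2 CPM in PMA libraries and 24.2, 28.3 and 24.8 CPM in control libraries, with a log2 fold change of 0.08 ± 0.10 (adjusted p = 0.513, edgeR).

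HARS1 and HARS2, the pair of histidyl genes of which neither passed the test with either treatment in the fit of all 9 libraries, lie head to head on chromosome 5, with starts 85 bases apart. The 84 bases between the starts in RefSeq, on the plus strand of GRCh38.p14, are shown because both genes are read outwards from them.
HARS1 to HARS2 (chr5:140691371-140691454): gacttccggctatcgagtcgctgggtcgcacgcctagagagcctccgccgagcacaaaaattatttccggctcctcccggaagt
Strand-specific counting is not stated in the sources used here, so reads near these starts could have been assigned to either gene. The estimated counts of HARS1 were whole numbers in 1 of 9 libraries and those of HARS2 in 7 of 9. Whether reads were shared between these 2 genes was not tested. Taking as whole only values with no fractional part as deposited (no tolerance), counts of 19 members were whole in all 9 libraries, whereas those of GARS1, HARS1, LARS1, MARS1, CARS2, RARS2, VARS2 and YARS2 were whole in 4 or fewer, and values of these 8 genes are less certain, since fractional estimates arise where reads are shared between features.

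With As2S2, most cytosolic synthetase transcripts were lower than in control libraries, and the mitochondrial class held genes that fell and genes that rose. Of 19 cytosolic genes, 15 fell, 0 rose and 4 did not pass, where 39.9% of all tested genes passed, 20.3% higher and 19.6% lower. The median was -0.31 in the cytosolic class, against -0.00 over all tested genes, and 0 of the 19 passed with a fall of 1 or more on the log2 scale, against 3.49% of all tested genes. Of 16 mitochondrial genes, 8 fell, 3 rose and 5 did not pass, with a median of -0.25. With only the As2S2 and control libraries in the fit, 7 mitochondrial genes fell and 1 rose. Without As2S2 replicate 1 and control replicate 2, cytosolic genes had 15 lower and 1 higher and mitochondrial genes 9 lower and 2 higher, where 50.3% of tested genes passed. The As2S2 and PMA comparisons used the same control libraries, so their fold changes share the error of those libraries.

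The cytosolic genes that fell most with As2S2 were FARSB, LARS1, IARS1 and VARS1. FARSB, the beta subunit of the phenylalanyl enzyme, had 54.8, 44.6 and 43.1 CPM in As2S2 libraries, 50.7, 49.4 and 47.5 CPM in PMA libraries and 100.04, 88.02 and 93.7 CPM in control libraries, and both treatments lay below control without overlap, with a log2 fold change of -0.98 ± 0.09 (adjusted p = 6.99e-07, edgeR) for As2S2 and -0.93 ± 0.09 (adjusted p = 2.46e-07, edgeR) for PMA. LARS1, the leucyl enzyme, had 109, 103 and 91.5 CPM in As2S2 libraries, 70.4, 63.8 and 69.5 CPM in PMA libraries and 181, 139 and 175 CPM in control libraries, with a log2 fold change of -0.71 ± 0.10 (adjusted p = 2.87e-05, edgeR). VARS1, the valyl enzyme, had 103, 122.7 and 126 CPM in As2S2 libraries, 71.9, 69.4 and 73.1 CPM in PMA libraries and 176, 204 and 159 CPM in control libraries, with a log2 fold change of -0.62 ± 0.09 (adjusted p = 7.73e-05, edgeR). IARS1, whose values are given above, showed a log2 fold change of -0.64 ± 0.09 (adjusted p = 2.76e-05, edgeR). All As2S2 libraries of these 4 genes lay below all control libraries. The genes were picked as the largest falls, and 22.7% of all tested genes were lower without overlap with As2S2.

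The smallest called falls in the cytosolic class with As2S2 were those of MARS1, WARS1, FARSA and YARS1. MARS1, the methionyl enzyme, had 192, 198 and 197 CPM in As2S2 libraries, 87.5, 84.00 and 82.2 CPM in PMA libraries and 209, 241 and 219.9 CPM in control libraries, with a log2 fold change of -0.19 ± 0.07 (adjusted p = 0.0373, edgeR). This call was lost without any single library other than control replicate 1, with adjusted p from 0.0505 to 0.117. WARS1 showed a log2 fold change of -0.20 ± 0.06 (adjusted p = 0.0126, edgeR), and without control replicate 3 the adjusted p was 0.0564. FARSA showed a log2 fold change of -0.26 ± 0.09 (adjusted p = 0.0294, edgeR), and the adjusted p was 0.115 without control replicate 2 and 0.106 without As2S2 replicate 1. YARS1, the tyrosyl enzyme, had 363, 359 and 358 CPM in As2S2 libraries, 171, 169 and 158 CPM in PMA libraries and 440.5, 442 and 416 CPM in control libraries, with a log2 fold change of -0.27 ± 0.06 (adjusted p = 0.00289, edgeR), and its As2S2 libraries did not overlap the control libraries.

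Falls of between -0.30 and -0.49 with As2S2 were seen for EPRS1, AARS1, TARS1, NARS1, GARS1, KARS1 and SARS1. Of these, NARS1 lost its call without control replicate 1 (adjusted p = 0.06, edgeR) and without As2S2 replicate 3 (adjusted p = 0.0566, edgeR). CARS1, HARS1, QARS1 and RARS1 did not pass, with log2 fold changes of 0.12, 0.15, -0.04 and -0.25. HARS1 passed without control replicate 2 (0.18, adjusted p = 0.0476, edgeR), and RARS1 passed without control replicate 2 (-0.37, adjusted p = 0.0127) or without As2S2 replicate 1 (-0.36, adjusted p = 0.043). QARS1 turned to 0.036 without control replicate 2. The scaffold genes EEF1E1, AIMP2 and AIMP1 fell with As2S2 by 1.03, 0.87 and 0.43 on the log2 scale.

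In the mitochondrial class, NARS2, MARS2, PARS2 and IARS2 fell most with As2S2. NARS2 showed a log2 fold change of -0.91 ± 0.11 (adjusted p = 1.18e-05, edgeR) and MARS2 showed a log2 fold change of -0.83 ± 0.09 (adjusted p = 2.7e-06, edgeR), on the values given above. PARS2, the prolyl enzyme, had 10.02, 12.03 and 12.8 CPM in As2S2 libraries, 12.8, 13.6 and 13.2 CPM in PMA libraries and 17.8, 19.8 and 18.7 CPM in control libraries, with a log2 fold change of -0.69 ± 0.11 (adjusted p = 0.000138, edgeR). IARS2, the isoleucyl enzyme, had 30.7, 24.7 and 23.9 CPM in As2S2 libraries, 29.9, 32.9 and 29.3 CPM in PMA libraries and 42.00, 36.4 and 40.7 CPM in control libraries, with a log2 fold change of -0.59 ± 0.11 (adjusted p = 0.000361, edgeR). No As2S2 library of these 4 genes, picked as the largest falls, reached the lowest control library, where 22.7% of all tested genes were lower without overlap. EARS2, CARS2, LARS2 and YARS2 fell by 0.51, 0.44, 0.28 and 0.27 on the log2 scale.

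AARS2, RARS2 and VARS2 rose with As2S2. AARS2 showed a log2 fold change of 0.49 ± 0.10 (adjusted p = 0.00133, edgeR), and its 3 As2S2 libraries stood above all 6 others. Of all tested genes, 23.1% were higher with As2S2 than in control libraries without overlap. RARS2 showed a log2 fold change of 0.38 ± 0.13 (adjusted p = 0.023, edgeR), with As2S2 replicate 1 the highest of its group, and without that library the value was 0.23 with an adjusted p of 0.112, and without control replicate 2 it was 0.31 with an adjusted p of 0.0561. VARS2, the valyl enzyme, had 41.1, 48.6 and 49.4 CPM in As2S2 libraries, 23.7, 25.1 and 23.9 CPM in PMA libraries and 35.4, 41.7 and 36.2 CPM in control libraries, with a log2 fold change of 0.30 ± 0.10 (adjusted p = 0.0217, edgeR). Its As2S2 replicate 1 overlapped the control libraries, and the call was lost without control replicate 1 or 3 or As2S2 replicate 2 or 3, with adjusted p from 0.0752 to 0.0969. YARS2 showed a log2 fold change of -0.27 ± 0.10 (adjusted p = 0.0336, edgeR), a call lost without control replicate 2 or 3, As2S2 replicate 2 or 3, or PMA replicate 1 or 3, with adjusted p from 0.0528 to 0.111. The call for LARS2 was lost without control replicate 1 or 3 or As2S2 replicate 2, with adjusted p from 0.056 to 0.0886. WARS2 did not pass (-0.22, adjusted p = 0.134, edgeR) and passed without As2S2 replicate 1 (-0.31, adjusted p = 0.0348).

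Set directly against each other, As2S2 libraries held more of most cytosolic synthetase transcripts than PMA libraries. Of 19 cytosolic genes 14 were higher with As2S2, 1 was lower and 4 did not pass, where 61.4% of all tested genes passed, 30.9% higher and 30.6% lower. The cytosolic median was 0.71 on the log2 scale. Of 16 mitochondrial genes 5 were higher, 1 was lower and 10 did not pass, with a median of 0.04. Without As2S2 replicate 1 and control replicate 2, 15 cytosolic genes were higher and 3 lower, and 6 mitochondrial genes were higher and 4 lower, where 66.4% of tested genes passed. Without As2S2 replicate 1 alone, 13 cytosolic genes were higher and 2 lower, and 5 mitochondrial genes were higher and 4 lower. On the log2 scale WARS1, EPRS1 and CARS1 differed most, by 2.57 ± 0.06 (adjusted p = 1.07e-14, edgeR), 1.92 ± 0.14 (adjusted p = 5.81e-09, edgeR) and 1.73 ± 0.07 (adjusted p = 6.59e-12, edgeR). RARS1 was the cytosolic gene lower with As2S2, with a log2 difference of -0.48 ± 0.13 (adjusted p = 0.00381, edgeR). In the mitochondrial class SARS2, VARS2 and AARS2 differed most, by 1.03 ± 0.12 (adjusted p = 2.04e-06, edgeR), 0.93 ± 0.10 (adjusted p = 5.64e-07, edgeR) and 0.78 ± 0.11 (adjusted p = 7.93e-06, edgeR), CARS2 and WARS2 were also higher, and YARS2 was lower, with a log2 difference of -0.35 ± 0.10 (adjusted p = 0.00532, edgeR).

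For 13 amino acids a cytosolic and a mitochondrial gene could be paired within each library. The ratio of their TPM does not depend on the scaling of library totals. It does depend on the transcript lengths used for TPM, and the pairs were not repeated in CPM. The TPM of the cytosolic gene was above that of its mitochondrial partner in all 3 libraries for 13 of 13 pairs with As2S2, 12 with PMA and 13 in control libraries. The exception was CARS1 over CARS2, whose log2 ratio was 0.07, 0.10 and -0.10 in PMA libraries, against 0.92, 0.72 and 1.01 in control libraries. With PMA the TPM ratio was lower without overlap in 11 pairs, higher in 0 and overlapping in 2 (histidine and asparagine). The median log2 difference was -0.62, which was that of the serine pair. For this pair the fold changes from counts lay closer together, at -1.21 for SARS1 and -0.95 for SARS2 on the log2 scale. Between As2S2 and PMA libraries 8 pair ratios were higher and 1 lower without overlap, with a median difference of 0.51. For single genes, 33.7% of all tested genes had CPM lower without overlap with PMA against control and 33.8% had it higher, and for As2S2 against PMA the shares were 33.6% higher and 33.6% lower.

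The widest pair was WARS1 over WARS2, with log2 ratios of 6.93, 7.27 and 7.23 in As2S2 libraries, 4.67, 4.45 and 4.64 in PMA libraries and 7.08, 7.01 and 7.32 in control libraries. IARS1 over IARS2 had 1.96, 2.35 and 2.36 in As2S2 libraries, 0.46, 0.83 and 0.91 in PMA libraries and 2.41, 2.18 and 2.15 in control libraries. In both pairs the PMA libraries stood below the other 6, which overlapped. AARS1 over AARS2 had 4.05, 3.92 and 3.88 in As2S2 libraries, 3.51, 3.45 and 3.38 in PMA libraries and 4.98, 4.90 and 4.82 in control libraries, and so differed from control without overlap with both treatments.

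With As2S2 the pair ratios went both ways: 4 were higher without overlap (cysteine, histidine, methionine and asparagine), 5 were lower (alanine, leucine, arginine, serine and valine) and 4 overlapped, with a median difference of -0.04. Single genes had CPM higher without overlap with As2S2 in 23.1% of all tested genes and lower in 22.7%. MARS1 over MARS2 had 3.43, 3.45 and 3.08 in As2S2 libraries, 2.44, 2.17 and 1.99 in PMA libraries and 2.64, 2.68 and 2.47 in control libraries. VARS1 over VARS2 had 0.97, 1.26 and 0.94 in As2S2 libraries, 1.45, 1.53 and 1.46 in PMA libraries and 1.99, 2.10 and 1.96 in control libraries. The As2S2 libraries were highest for the methionine pair and lowest for the valine pair, the only pair of 13 in which As2S2 lay below PMA without overlap. EPRS1 has 2 mitochondrial counterparts, and its log2 ratio with PMA was lower than in control libraries without overlap against both EARS2 and PARS2.

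**Figure D4:**
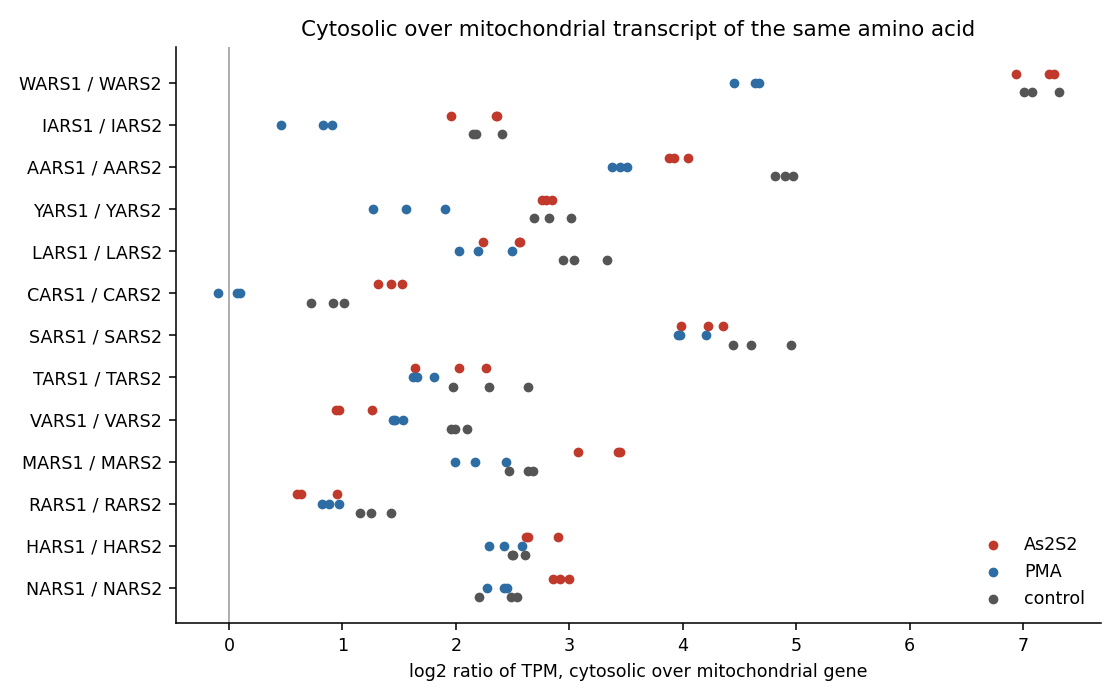
Log2 ratio of TPM of the cytosolic gene over its mitochondrial partner in each library for 13 amino acids, ordered from the largest PMA difference at the top to the smallest at the bottom. PMA points lie to the left of the control points in 11 pairs, by most for WARS1 over WARS2, where PMA libraries sit at 4.45 to 4.67 and control libraries at 7.01 to 7.32.

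Genes of neighbouring steps were set beside the synthetases, with values given as log2 fold changes against control. The 12 genes of ATF4 and amino acid supply had the lowest median of the lists with PMA: 12 of 12 fell, where 31.1% of all tested genes fell, with a median of -2.75. PHGDH and PSAT1, enzymes of serine synthesis, had -4.01 ± 0.10 and -3.70 ± 0.07, the amino acid transporter SLC7A5 had -3.16 ± 0.10 and the asparagine synthetase ASNS had -3.01 ± 0.10. ATF4 itself, named as the factor of the list, had -1.60 ± 0.07 (adjusted p = 1.41e-11, edgeR). With As2S2 5 of the 12 fell and 1 rose, where 19.6% of all tested genes fell and 20.3% rose, with a median of -0.17; ASNS had -1.15 ± 0.09 (adjusted p = 9.41e-08, edgeR) and TRIB3, a pseudokinase, had -0.91 ± 0.11 (adjusted p = 6.53e-06, edgeR). Only CHAC1, of 10 genes of this list with a RefSeq promoter, held TGATGCAA in the window searched. Of the 4 kinases that phosphorylate eIF2 alpha upstream of ATF4, 1 fell with each treatment: EIF2AK4, which senses uncharged tRNA, had -0.42 ± 0.13 (adjusted p = 0.0175, edgeR) with As2S2 and -0.52 ± 0.13 (adjusted p = 0.00271, edgeR) with PMA, and EIF2AK1, EIF2AK2 and EIF2AK3 did not pass in either comparison, with values between -0.28 and 0.17.

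Interferon-responsive genes were listed because WARS1 is known as 1 of them. With PMA 8 of 8 rose, where 30.8% of all tested genes rose, with a median of 1.06, while WARS1 fell. The part of interferon or of ATF4 in the changes of the synthetases was not tested. The guanylate-binding protein GBP2 had 2.83 ± 0.12 (adjusted p = 5.02e-12, edgeR), the immunoproteasome subunit PSMB9 had 2.32 ± 0.16 (adjusted p = 2.62e-09, edgeR) and the transcription factor IRF1 had 1.12 ± 0.09 (adjusted p = 1.56e-08, edgeR). With As2S2 1 of the 8 rose and 3 fell, where 20.3% of all tested genes rose and 19.6% fell; among the 3 was ISG15, a ubiquitin-like protein, with -1.32 ± 0.12 (adjusted p = 5.91e-07, edgeR).

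Other lists of translation genes held genes that rose and genes that fell with PMA, as did all tested genes, of which 30.8% rose and 31.1% fell. Of 7 cytosolic elongation factor genes 3 rose and 2 fell, with EEF2, the translocase, at -0.79 ± 0.08 (adjusted p = 2.86e-07, edgeR). Of 9 mitochondrial translation factors 4 rose and 3 fell, with MTIF2, the mitochondrial initiation factor, at -1.74 ± 0.18 (adjusted p = 4.06e-07, edgeR). Of 12 genes of tRNA end processing and export 4 rose and 5 fell, with XPOT, the tRNA exporter, at -1.58 ± 0.14 (adjusted p = 5.44e-08, edgeR). With As2S2 the same lists had 1 higher and 1 lower, 0 higher and 4 lower, and 3 higher and 5 lower, where 20.3% of all tested genes were higher and 19.6% lower. Of 4 genes of the mitochondrial glutaminyl-tRNA amidotransferase and the methionyl-tRNA formyltransferase, GATB had 0.46 ± 0.10 (adjusted p = 0.00182, edgeR) with As2S2 and -0.26 ± 0.10 (adjusted p = 0.0396, edgeR) with PMA, MTFMT had 0.50 ± 0.11 (adjusted p = 0.00103, edgeR) with PMA, and QRSL1 and GATC did not pass in either.

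Of 8 other genes of tRNA charging and proofreading, 5 fell with As2S2 and 5 with PMA, where 19.6% and 31.1% of all tested genes fell. DTD2 and DTD1, which remove wrongly attached amino acids from tRNA, are on this list. DTD2 had -1.10 ± 0.12 (adjusted p = 2.85e-06, edgeR) with As2S2 and -0.50 ± 0.12 (adjusted p = 0.00134, edgeR) with PMA, and DTD1 had -0.86 ± 0.11 (adjusted p = 1.51e-05, edgeR) with As2S2 and -0.71 ± 0.11 (adjusted p = 3.24e-05, edgeR) with PMA. Of 10 tested regulators of mitochondrial biogenesis, 7 fell and 0 rose with As2S2, and 5 fell and 1 rose with PMA, against the same shares of all tested genes. MYC, which is also known to drive ribosome and nucleotide synthesis genes, had -1.34 ± 0.07 (adjusted p = 1.21e-09, edgeR) with As2S2 and -1.76 ± 0.07 (adjusted p = 4.12e-12, edgeR) with PMA. TFB2M, a mitochondrial transcription factor, had -0.56 ± 0.11 (adjusted p = 0.000926, edgeR) with As2S2 and 0.54 ± 0.11 (adjusted p = 0.000393, edgeR) with PMA.

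**Figure D5:**
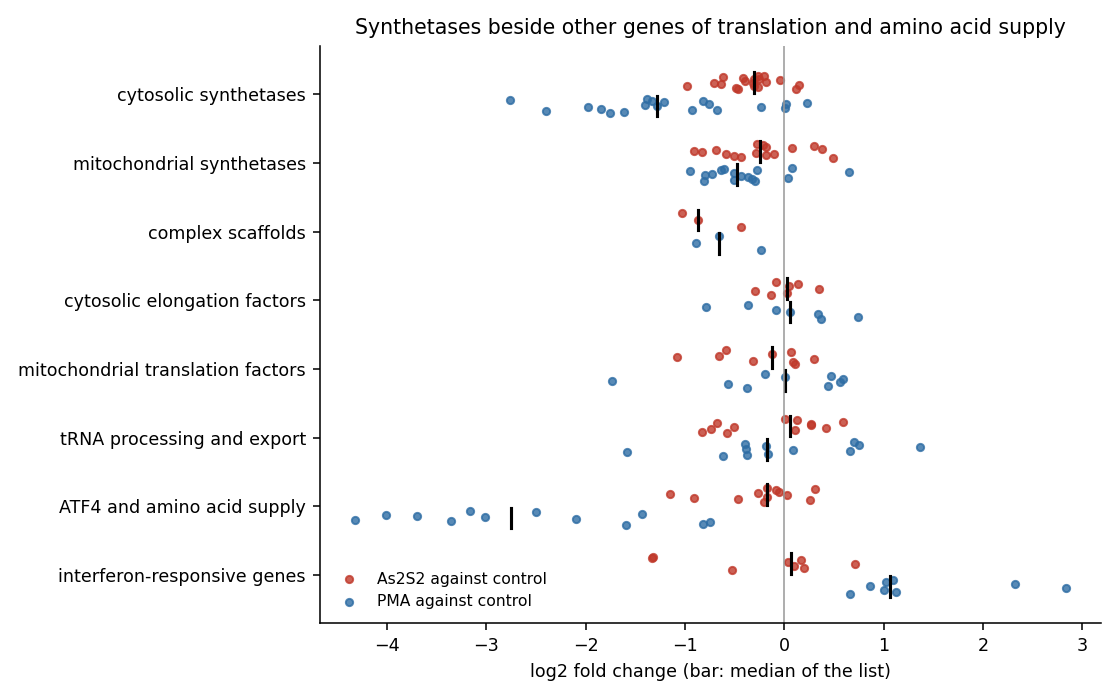
Log2 fold change of each gene against control for the synthetase classes and 6 other lists, with As2S2 above PMA within each list and a bar at the median. The PMA medians are -1.28 for the cytosolic synthetases, -0.47 for the mitochondrial synthetases and -2.75 for the ATF4 list.

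In the authors' deposited table, the PMA comparison gave the same call as the refit for all 35 members at an adjusted p under 0.05. In the authors' deposited table for As2S2, 14 cytosolic genes were lower and 0 higher, and 6 mitochondrial genes were lower and 1 higher. The members whose call differed there from the refit were MARS1, LARS2, RARS2, VARS2 and YARS2, each of which also lost its call when single libraries were left out.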

How the data were processed

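Poly(A) RNA libraries of MEG-01 cells were made with a NEBNext Ultra II kit, per the labels' protocols. fastp 0.22.0 and DESeq2 are named in the submitters' processing notes, with zebrafish builds (GRCz11, danRer11), and 1 of the 9 samples carries an organism label other than human, although the deposited IDs are human Ensembl IDs. No aligner, counter, strand setting or annotation is named in the labels or file headers. The authors deposited estimated counts without normalization and TPM values for each gene and library, as the file headers name them. The deposited tables also hold the authors' own log2 fold changes and adjusted p-values. Symbols matched 62666 of the 63241 IDs. Of these genes, 33498 had 0 counts in every library.

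Counts were rounded to whole numbers, filtered by filterByExpr, scaled by TMM and tested over 3 groups of 3 libraries in R 4.3.3 with edgeR 4.0.16 (quasi-likelihood F-test). P-values were adjusted after Benjamini and Hochberg over 14592 genes, with a threshold of 0.05. A log2 fold change is given with an SE, derived as its absolute value over the square root of the F statistic of the test. The common dispersion had a square root of 0.0909. The fit was tested on simulated counts. Lists were given by counts and medians, with no test of a list. Members, lists and motifs were chosen with earlier results of these data known. Per-library values were given for the 4 highest and 4 lowest called genes per class and treatment, the 3 with the largest absolute log2 fold change per class for As2S2 against PMA, and others named after their values were seen. From other lists, up to 4 genes with the smallest adjusted p were named. Replicate numbers were not taken to pair the libraries. Alternatives were scaling by RLE or by the upper quartile, limma-voom (limma 3.58.1), DESeq2 1.42.0, no filter, a stricter filter (10 counts per library of 1 group, mean of 1 CPM), only the groups compared, a replicate block, a threshold of 0.01, CPM in place of TPM, and libraries left out.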

Additional observations from a re-analysis of the deposited data

How the results depend on the processing

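Over both classes and both directions together, the number of synthetase genes past the threshold (26 for As2S2, 30 for PMA and 21 for As2S2 against PMA) stayed within 1.5 times its value under all alternatives. Some smaller counts by class and direction did not. Mitochondrial genes higher with As2S2 numbered 3, and 1 with only the 2 groups compared. The threshold of 0.01 also left 1, since RARS2 (adjusted p = 0.023, edgeR) and VARS2 (adjusted p = 0.0217, edgeR) lost their calls there. For As2S2 against PMA, mitochondrial genes lower numbered 1, but 3 with upper-quartile scaling, 2 with the replicate block and 4 without As2S2 replicate 1, and cytosolic genes lower numbered 1, but 2 without that library; without both As2S2 replicate 1 and control replicate 2 they numbered 4 and 3. Cytosolic genes higher numbered 0 with each treatment, but 1 with As2S2 without control replicate 2 (also with As2S2 replicate 1 left out) and 1 with PMA without control replicate 1. The cytosolic median with As2S2 ran from -0.38 to -0.27 with single libraries left out and was -0.41 without As2S2 replicate 1 and control replicate 2. With PMA the cytosolic median ran from -1.31 to -1.23 with single libraries left out, and was -1.33 without a filter on low counts and -1.24 without As2S2 replicate 1 and control replicate 2. For As2S2 against PMA it ran from 0.67 to 0.81 with single libraries left out and was 0.81 without those 2 libraries. The ratio of summed cytosolic levels, PMA over control, was 0.283 in TPM and 0.402 in CPM, and As2S2 over PMA it was 2.74 in TPM and 2.02 in CPM. For the mitochondrial class As2S2 over control was 0.767 in TPM and 0.826 in CPM, PMA over control 0.544 and 0.740, and As2S2 over PMA 1.41 and 1.12. With the replicate number as a block, the calls were again 15 cytosolic lower with As2S2 and 16 with PMA, and 8 mitochondrial lower and 3 higher with As2S2 and 13 lower and 1 higher with PMA. Deviations of same-numbered libraries correlated between -0.07 and 0.15, so the numbers were not taken to pair the libraries.

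Counting each single-gene fold change under each alternative, 11 values changed sign, and they came from 5 fold changes. None of these values was past the threshold, and the cause was not tested. With As2S2, QARS1 ran from -0.095 to 0.036 and SARS2 from -0.038 to 0.19 with single libraries left out, and QARS1 was 0.069 without As2S2 replicate 1 and control replicate 2. With PMA and no filter, HARS1 was -0.039, QARS1 -0.032 and HARS2 -0.0069. With PMA, HARS1 ran from -0.025 to 0.036, QARS1 from -0.044 to 0.085 and HARS2 from -0.034 to 0.073 with single libraries left out. With 3 libraries a group and 547 or more summed counts per gene and group, small fold changes near the threshold depended on single libraries, mainly in the As2S2 comparison.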
